A study of Mus musculus with 27 samples.

Results

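The 40 genes described here are a group of cell cycle and DNA replication genes of the mouse. They are listed by name as genes of these processes, and the list applies no threshold to a measured value. Their level is the FPKM (fragments per kilobase of transcript, scaled to the mapped fragments of a library) that the authors deposited. It was read by gene name in the siRNA and inhibitor experiments and by the assembled locus that covers the gene in the total RNA experiment. They are 40 of 23008 named genes with a locus in these files, and all 40 were tested in all 3 experiments. By role, 6 are cyclins and *Cdk1*, 7 are mitotic kinases, checkpoint and passenger genes, 3 act at the centromere and kinetochore, 5 at the spindle and in cytokinesis, and 2 shape chromosomes. A further 6 form the MCM helicase, 5 license or fire origins or clamp the polymerase, 4 make nucleotides, and 2 are E2F factors. The 21 that act mainly around division are called G2/M members here, and the 19 that act mainly around the start of replication (the last 4 roles, *Ccne1* and *Ccne2*) are called G1/S members.

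A dividing cell makes these genes in waves. E2F factors switch on the genes of licensing, the helicase and nucleotide supply before S phase, while most genes of mitosis are held down by the DREAM complex in resting cells and switched on later through B-Myb and FoxM1. Cultured fibroblasts divide as long as growth factors signal through the MAP kinase pathway, and their level of these RNAs follows the share of dividing cells.

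All libraries come from *Setdb1* cKO iMEFs, an immortalized line of embryonic fibroblasts from mice with conditional alleles of *Setdb1*, a histone methyltransferase. In them 4-hydroxytamoxifen (4OHT) sets off the deletion. The cells are a subclone that the study regrew from single cells and screened for loss of the protein, so they stand for 1 clonal line. In the total RNA experiment (9 libraries after ribosomal RNA depletion), 3 libraries come from untreated cells and 3 from cells harvested at day 5, after 4OHT for the first 4 days. The other 3 come from cells kept in culture for more than 2 weeks after 4OHT (long-term KO), as labelled; the methods of the study give a shorter minimum for that culture. In the siRNA experiment (8 libraries, 2 per group), the same cells received control siRNA (siCtrl) or siRNA against *Dnmt1* (siDnmt1) in 2 transfections, each with or without 4OHT from day 0, and were harvested at day 6. In the inhibitor experiment (10 libraries, 2 per group), cells were untreated, given 4OHT and harvested at day 6, given the MEK inhibitor PD0325901 at 1 µM for the last 24 h, or given both. A further group received TSA (trichostatin A, a histone deacetylase inhibitor) at 150 nM for 24 h. The treatment labels spell the MEK inhibitor PD0325091 and the protocol PD0325901, and the second spelling is used here.

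The targeted genes were read first. In the total RNA experiment *Setdb1* measured 5.95, 5.53 and 5.17 FPKM untreated, 4.16, 4.20 and 6.52 at 4OHT day 5 and 7.24, 7.32 and 6.96 in long-term KO. All untreated libraries stood below 4 others, namely the 3 libraries labelled long-term KO and the library labelled 4OHT day 5 replicate 3, which goes against these labels. FPKM of a whole gene says nothing on exons that are missing from its transcript. The interferon-response gene *Irf7* (chosen after its values were seen) separated these groups. It measured 0.412, 0.486 and 0.530 FPKM untreated, 16.3, 19.15 and 17.7 at 4OHT day 5 and 4.28, 4.89 and 5.44 in long-term KO. Day 5 replicate 3 thus lay with its own group for *Irf7*. The labels were followed, and whether any is wrong was not tested. In the siRNA experiment *Setdb1* measured 7.40 and 6.48 FPKM with siCtrl, 6.08 and 5.54 with siDnmt1, 7.58 and 5.00 with 4OHT + siCtrl and 5.39 and 6.94 with 4OHT + siDnmt1, with overlap between the groups. The inhibitor libraries gave 8.76 and 10.1 FPKM untreated, 0 and 5.30 at 4OHT day 6, 5.34 and 5.56 with PD0325901, 0 and 0 with 4OHT + PD0325901 and 9.56 and 9.0 with TSA. There the 4 libraries with 4OHT stood below the untreated ones, and 3 of them are listed at 0. These 0 values are not flagged as failed, though a 0 can still be a failed estimate. Both libraries with PD0325901 alone also lay below the untreated ones. *Dnmt1* measured 80.5 and 73.4 FPKM with siCtrl, 12.2 and 10.6 with siDnmt1, 78.7 and 78.3 with 4OHT + siCtrl and 12.2 and 11.4 with 4OHT + siDnmt1, so all 4 siDnmt1 libraries lay far below the other 4.

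One library stands apart, and it gives the second of the 2 values wherever values with 4OHT + siCtrl are listed. The library labelled 4OHT + siCtrl replicate 2 held the interferon-response genes *Irf7* and *Usp18* (chosen after their values were seen) at 14.6 and 4.10 FPKM, and replicate 1 of that group held them at 279 and 136 FPKM. With siCtrl alone, *Irf7* was at 21.1 and 21.5 FPKM, so the library labelled 4OHT + siCtrl replicate 2 lies below the siCtrl libraries for this gene and far from its own replicate. For *Foxm1* (chosen likewise) it lies near replicate 1, with 56.2 and 52.2 FPKM in the group and 27.2 and 24.8 FPKM with siCtrl. Its summed fibroblast markers (4525 FPKM) lie between replicate 1 (3008 FPKM) and siCtrl (6432 and 6638 FPKM). Its label was followed, and whether that label is right was not tested. Confidence intervals of the 2 libraries of that group lay apart for 51.5% of the genes tested, against 7.14 to 38.4% in the other pairs of libraries of a group. In the inhibitor experiment, the file of PD0325901 replicate 2 carries the title of a 4OHT + PD0325901 library in 1 header line and its own label in another. Its *Irf7* was 4.02 FPKM, against 4.75 FPKM in PD0325901 replicate 1 and 266 and 321 FPKM with 4OHT + PD0325901, and its label was followed.

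Nothing in the labels says whether libraries of a group come from separate cultures, so the adjusted p-values below measure only the spread between these libraries, which may be technical. Each experiment was fitted on its own with limma on log2(FPKM + 0.1), and SE below is the standard error of a log2 fold change. A call, higher or lower, needs an adjusted p under 0.05, with the adjustment over all genes tested (11053, 11855 and 12472 in the total RNA, siRNA and inhibitor experiments). Comparisons within an experiment share control libraries and are given side by side. In bulk RNA, fewer dividing cells and less RNA per cell cannot be told apart. The deposited 95% intervals of the members reached a median of 4.63 to 7.17% to either side of the value, depending on the library. The widest was that of *Mcm7* in untreated replicate 1 of the inhibitor experiment, which reached 8.97e+03% above the value. The next widest were 78.3% for *E2f2* in 4OHT + siDnmt1 replicate 2 and 66% for *Kif20a* in the library labelled 4OHT + siCtrl replicate 2. Depth, worked out from fragments behind the values in units of 1000000, was 35.88 to 39.96 in total RNA, 13.75 to 15.68 in siRNA and 10.89 to 12.62 in inhibitor libraries.

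Summed over the 40 members, the level was 2959 and 3016 FPKM in the untreated libraries of the inhibitor experiment, 3197 and 2954 at 4OHT day 6, 2612 and 2331 with PD0325901, 3098 and 2727 with 4OHT + PD0325901 and 1736 and 1596 FPKM with TSA. Both TSA libraries lay below all 8 others of that experiment, and the next lowest were the PD0325901 libraries. In the total RNA experiment the sum was 2711, 2654 and 2553 FPKM untreated, 2678, 2718 and 2604 at 4OHT day 5 and 3009, 3042 and 2951 FPKM in long-term KO, and the long-term KO libraries were the 3 highest. The siRNA experiment gave 3054 and 3216 FPKM with siCtrl, 2900.4 and 2799.5 with siDnmt1, 3040.1 and 3242 with 4OHT + siCtrl and 2792 and 3010.1 FPKM with 4OHT + siDnmt1, so both siDnmt1 libraries lay below both siCtrl libraries. The most abundant member was *Pcna* in all 3 experiments (mean 327, 383 and 339 FPKM) and the least abundant *E2f2* (mean 1.32, 2.22 and 1.44 FPKM).

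**Figure D1:**
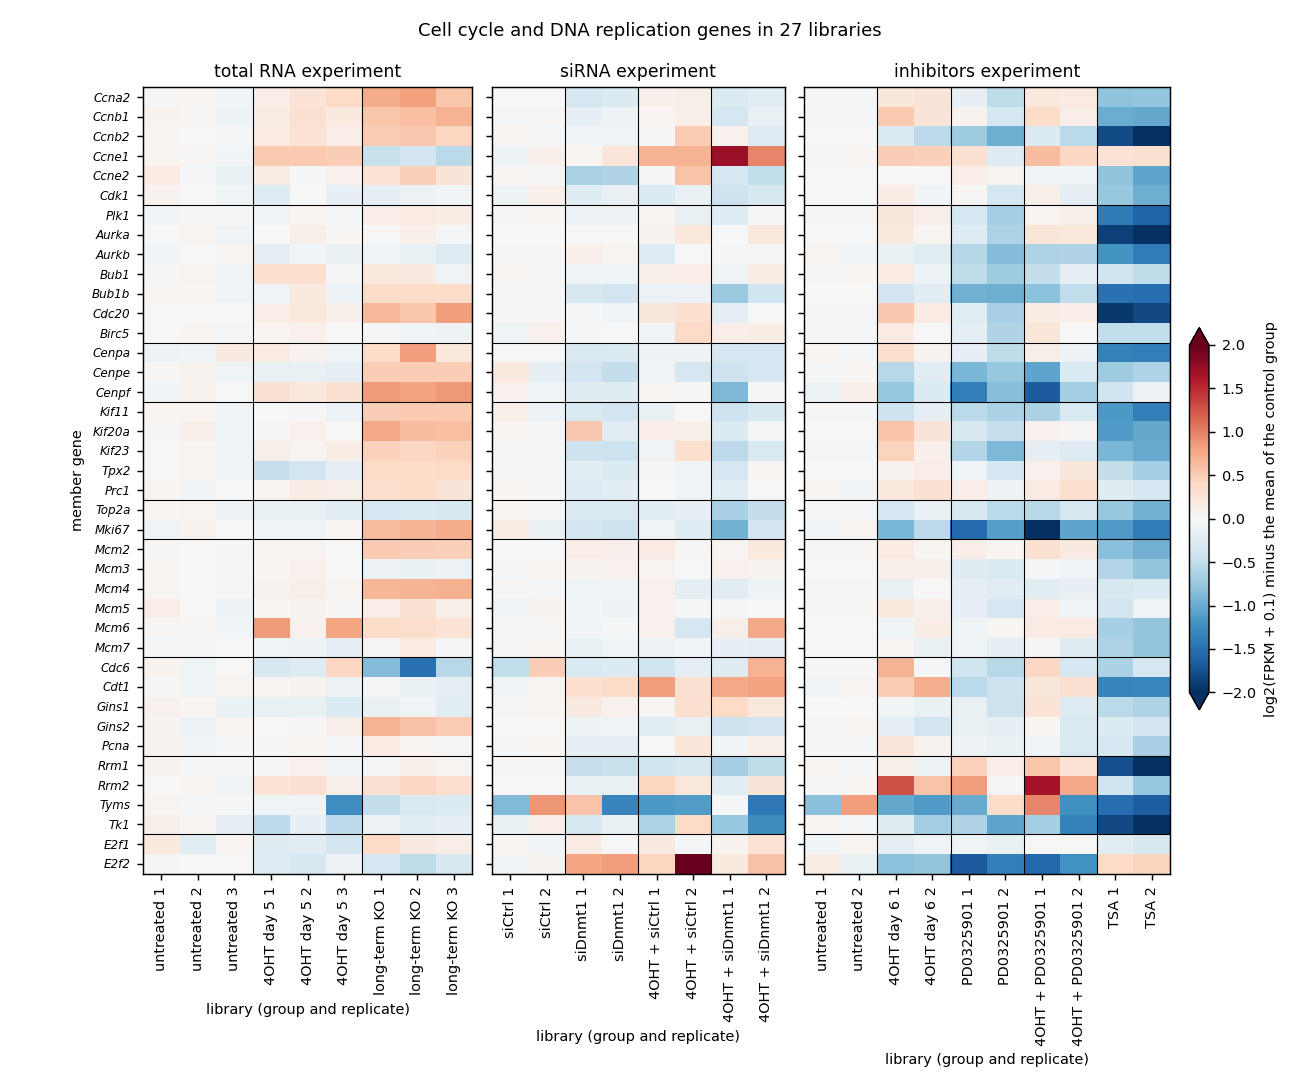
Level of the 40 members in the 27 libraries. Rows are genes, grouped by role between the horizontal lines, columns are libraries grouped by treatment, and color is log2(FPKM + 0.1) minus the mean of the control group of the same experiment (red above, blue below). The 2 TSA columns are blue in most rows, and the 3 long-term KO columns are red in most rows of the upper block, which holds the G2/M members and the E cyclins.

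Day 5 after 4OHT and long-term culture gave different counts in the total RNA experiment. At 4OHT day 5, 4 of the 40 members were lower than in untreated libraries (against 15.3% of all genes tested) and 5 were higher (against 16.4% of all genes), so both shares lay under those over all genes. The median log2 fold change of the members was 0.04, and 0.00 over all genes, and the first was 0.02 without untreated replicate 2, 0.00 without untreated replicate 3, 0.01 without 4OHT day 5 replicate 2 and 0.00 after median-ratio scaling. In long-term KO, 6 members were lower than in untreated libraries (against 26.6% of all genes) and 20 were higher (against 34.4% of all genes). The median was 0.28 for the members and 0.08 for all genes, and it was 0.45 for G2/M members, of which 15 were higher and 2 lower, and 0.05 for G1/S members, of which 5 were higher and 4 lower. Compared directly, long-term KO stood below 4OHT day 5 for 5 members (against 27.4% of all genes) and above it for 20 (against 32.5%), with a median of 0.20 for the members and 0.04 for all genes. No member call in these 3 comparisons reached a 2-fold change. Single libraries moved the day 5 counts. The 4 lower calls became 1 without untreated replicate 1 or 4OHT day 5 replicate 3, and 2 without untreated replicate 2 or 4OHT day 5 replicate 1. The 5 higher calls became 3 without untreated replicate 2 and 2 without untreated replicate 3. Of long-term KO against day 5, the 5 lower calls became 3 without 4OHT day 5 replicate 1 or long-term KO replicate 3, and 2 without long-term KO replicate 2.

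The siRNA experiment gave few calls among the members. With siDnmt1 against siCtrl, 1 member was lower (against 3.84% of all genes) and 0 were higher (against 2.81%), with 9 members at an unadjusted p under 0.05 in limma. Medians were -0.12 for members (-0.03 after median-ratio scaling and -0.07 after quantile normalization) and -0.09 for all genes. With 4OHT + siCtrl against siCtrl, 1 was lower (against 5.6%) and 0 were higher (against 6.26%), with 5 at an unadjusted p under 0.05 in limma. With 4OHT + siDnmt1 against siDnmt1, 1 was lower (against 3.8%) and 1 higher (against 7.67%). With 4OHT + siDnmt1 against 4OHT + siCtrl, limma called 0 lower (against 1.31%) and 0 higher (against 1.4%), with 13 at an unadjusted p under 0.05. Medians were -0.14 for members (-0.09 without 4OHT + siDnmt1 replicate 1) and -0.02 for all genes. The counts so far use 1 estimate of the spread over all siRNA libraries, the 4OHT + siCtrl pair included. With only the 2 groups in the fit, 9 members were lower and 2 higher with siDnmt1, against 21.6 and 12.7% of all genes in that fit. The part of that pair in the lower counts was not tested. Without a filter on low values 3 were lower with siDnmt1, and 2 with 4OHT + siDnmt1 against 4OHT + siCtrl. These counts also move with single libraries. The 1 call with siDnmt1 was lost without any 1 of its 4 libraries. Neither of the 2 calls with 4OHT + siDnmt1 against siDnmt1 was left without siDnmt1 replicate 1, siDnmt1 replicate 2 or 4OHT + siDnmt1 replicate 1, while 1 was left without 4OHT + siDnmt1 replicate 2. The 1 call with 4OHT + siCtrl against siCtrl became 0 without siCtrl replicate 1 or 2, 4 higher without 4OHT + siCtrl replicate 1, and 1 lower and 1 higher without the library labelled 4OHT + siCtrl replicate 2. Against 4OHT + siCtrl, 4OHT + siDnmt1 had 7 members lower and 1 higher without 4OHT + siCtrl replicate 1, 2 lower and 1 higher without 4OHT + siDnmt1 replicate 2. None was called in the fits without the library labelled 4OHT + siCtrl replicate 2 or without 4OHT + siDnmt1 replicate 1. With 4OHT + siDnmt1 against siDnmt1, the median of all genes was 0.15 as deposited, -0.02 after median-ratio scaling and -0.03 after quantile normalization.

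The inhibitor experiment gave the largest count of members called, with TSA. TSA libraries stood below untreated ones for 29 of 40 members (against 23.7% of all genes) and above for 0 (against 30.0% of all genes), with 33 members at an unadjusted p under 0.05 in limma. The median log2 fold change was -0.82 for the members, -1.01 for the G2/M and -0.58 for the G1/S members, and 0.09 for all genes. With PD0325901, 10 members were lower (against 7.0% of all genes) and 0 higher (against 5.36%), with 21 at an unadjusted p under 0.05 in limma and a median of -0.34 (-0.19 without PD0325901 replicate 2), against -0.07 over all genes. That count of 10 was 1 without untreated replicate 1 and 1 without untreated replicate 2, 4 without PD0325901 replicate 2 and 8 without PD0325901 replicate 1. Without a filter on low values, fewer than 10 members were called with PD0325901, and that count stands under the processing below. At 4OHT day 6, 1 member was lower (against 11.6% of all genes) and 2 were higher (against 11.8%). Those 3 calls became 0 without untreated replicate 1, 1 without untreated replicate 2 or 4OHT day 6 replicate 1, and 2 without 4OHT day 6 replicate 2.

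Adding PD0325901 to 4OHT, against 4OHT day 6, gave 0 members lower (against 2.38%) and 0 higher (against 3.74%) in limma, with 8 at an unadjusted p under 0.05. One was lower without 4OHT + PD0325901 replicate 2. Adding 4OHT to PD0325901, against PD0325901, gave 0 lower (against 2.38%) and 4 higher (against 5.7%), with 14 at an unadjusted p under 0.05 in limma. Those 4 calls became 1 without PD0325901 replicate 2, 4OHT + PD0325901 replicate 1 or 4OHT + PD0325901 replicate 2, and 7 without PD0325901 replicate 1. With the replicate number as a block, 7 members were called in this comparison. Deviations of libraries with the same number correlated at 0.176 between its 2 groups. The count was 1 with median-ratio scaling, 1 without a filter on low values, 2 with quantile normalization and 0 with only the 2 groups in the fit. For this comparison the median of all genes was 0.09 as deposited, -0.02 after median-ratio scaling and -0.06 after quantile normalization, and the median of the members was 0.22, 0.10 and 0.08 in the same order. The effect of 4OHT on a member was also tested for a difference between backgrounds. In limma, 0 members differed in the lower direction (against 0.143%) and 0 in the higher (against 0.245%) between siDnmt1 and siCtrl, with 1 at an unadjusted p under 0.05, and 1 was called lower without 4OHT + siCtrl replicate 1. Between PD0325901 and no inhibitor, 0 differed lower (against 0.128%) and 0 higher (against 0.353%) in limma, with 4 at an unadjusted p under 0.05. A p that misses the threshold does not show that the effects are the same.

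The way libraries are scaled moves the share of all called genes that were higher, against which the members are read. That share was 42.3% as deposited and 54.4% after median-ratio scaling for siDnmt1, 52.8% as deposited, 39.9% after median-ratio scaling and 39.1% after quantile normalization for 4OHT + siCtrl. It was 66.8% as deposited, 34.5% after median-ratio scaling and 35.4% after quantile normalization for 4OHT + siDnmt1 against siDnmt1. With PD0325901 it was 43.3% as deposited, 53.3% after median-ratio scaling and 53% after quantile normalization. Against 4OHT day 6, 4OHT + PD0325901 gave 61.1% as deposited and 49.4% after quantile normalization, and against PD0325901 it gave 70.5% as deposited, 53% after median-ratio scaling and 45.9% after quantile normalization. Last, it was 73.3% as deposited and 60.4% after median-ratio scaling for the difference of the 4OHT effect between PD0325901 and no inhibitor. For that difference the median of all genes was 0.10 as deposited and -0.02 after either scaling.

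**Figure D2:**
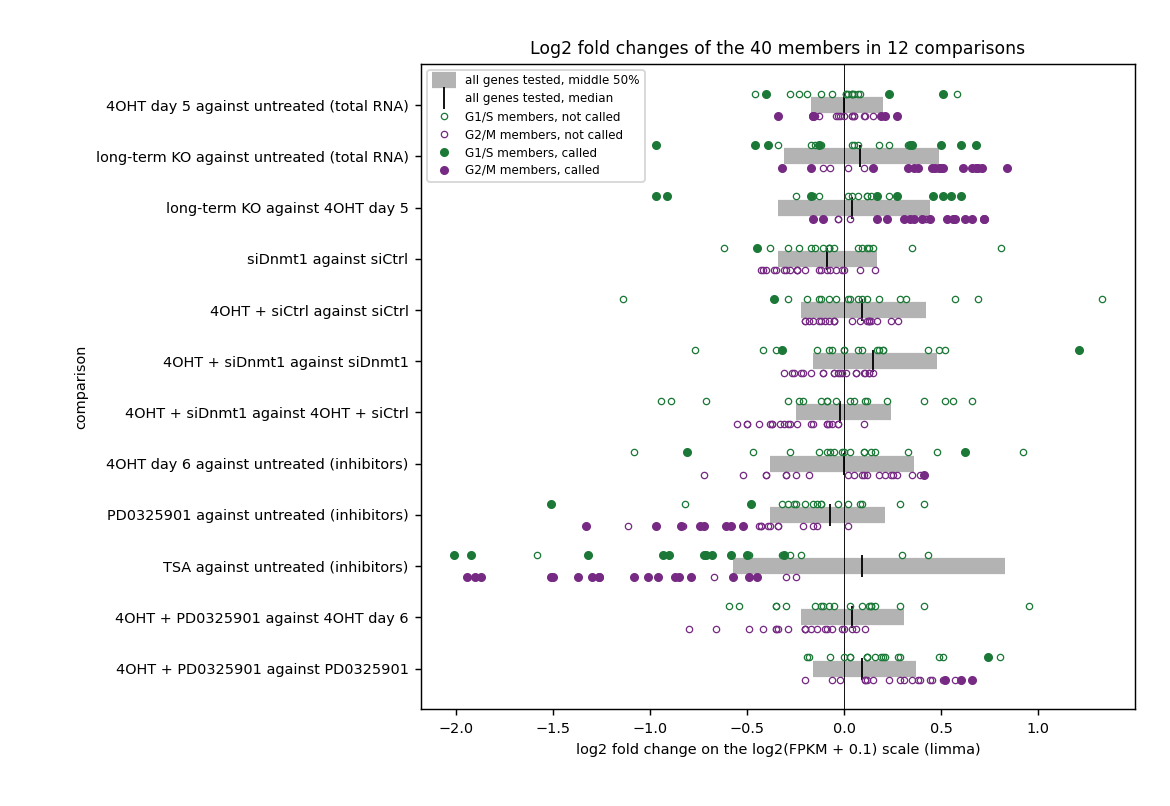
Log2 fold changes (limma) of the 40 members in 12 comparisons. Each dot is 1 member, G1/S members in green above and G2/M members in purple below each line, filled where called; the grey bar spans the middle 50% of all genes tested and the tick is their median. With TSA most members lie left of the grey bar, and in long-term KO most G2/M members lie to the right of the tick.

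The cyclins and *Cdk1* set the order of the cycle: E cyclins drive entry into S phase, cyclin A2 acts in S phase and G2, and the B cyclins with *Cdk1* drive mitosis. *Ccne1* (chr7:38883003-38892509 in mm9) measured 12.4, 12.2 and 11.6 FPKM untreated, 17.3, 17.4 and 17.0 at 4OHT day 5 and 8.87, 9.18 and 8.21 in long-term KO. It was high in all 3 libraries at day 5 and low in all 3 of long-term KO, and none of the 3 groups overlapped. Its log2 fold changes were 0.51 (SE 0.05, adjusted p = 2.40e-04) at day 5, -0.46 (SE 0.05, adjusted p = 1.06e-04) in long-term KO against untreated, and -0.97 (SE 0.05, adjusted p = 2.46e-06) in long-term KO against day 5. In the siRNA experiment it measured 12.2 and 13.9 FPKM with siCtrl, 13.4 and 15.5 with siDnmt1, 21.2 and 21.1 with 4OHT + siCtrl and 43.2 and 25.8 with 4OHT + siDnmt1. Each 4OHT library there stood above both libraries without 4OHT of the same siRNA, and 4OHT + siDnmt1 replicate 1 was the highest of the 8. It was called higher with 4OHT + siDnmt1 against siDnmt1, at 1.21 (SE 0.25, adjusted p = 0.0365). That call was lost without siDnmt1 replicate 1 or 2 or 4OHT + siDnmt1 replicate 1 and without a filter on low values, with median-ratio scaling, with quantile normalization or with only the 2 groups in the fit. The log2 fold change with 4OHT + siCtrl was 0.69 (SE 0.25, adjusted p = 0.12), not called, and without the library labelled 4OHT + siCtrl replicate 2 its FPKM of 21.2 in the other library is the only value of that group.

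In the inhibitor experiment *Ccne1* measured 14.4 and 15.3 FPKM untreated, 20.8 and 20.7 at 4OHT day 6, 18.3 and 12.4 with PD0325901, 22.8 and 19.8 with 4OHT + PD0325901 and 18.2 and 18.4 with TSA. It was 1 of 2 members whose TSA libraries lay above the untreated ones, and it was not called in any comparison of that experiment. Its changes there include 0.48 (SE 0.18, adjusted p = 0.095) at 4OHT day 6 and 0.30 (SE 0.18, adjusted p = 0.198) with TSA. Cyclin B2, *Ccnb2* (chr9:70255496-70269361), measured 120.3 and 123 FPKM untreated, 99.5 and 84.9 at 4OHT day 6, 74.1 and 61.8 with PD0325901, 101 and 83.3 with 4OHT + PD0325901 and 35.0 and 30.3 with TSA. The TSA libraries were the lowest, the PD0325901 libraries the next lowest, and all treated groups lay under the untreated one. The log2 fold change was -1.90 (SE 0.15, adjusted p = 6.44e-05) with TSA, -0.84 (SE 0.15, adjusted p = 0.0128) with PD0325901 and -0.40 (SE 0.15, adjusted p = 0.0864) at 4OHT day 6, the last not called. Its PD0325901 call was lost without untreated replicate 1 or 2. In total RNA *Ccnb2* measured 88.8, 86.3 and 84.6 FPKM untreated, 97.1, 104 and 94.7 at 4OHT day 5 and 124, 126 and 117 in long-term KO, rising in each later group without overlap. Its changes were 0.19 (SE 0.05, adjusted p = 0.0197) at day 5 and 0.50 (SE 0.05, adjusted p = 6.17e-05) in long-term KO. The day 5 call of *Ccnb2* was lost without untreated replicate 2 or 3.

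Cyclin A2, *Ccna2* (chr3:36463787-36470918), measured 74.0, 75.1 and 70.2 FPKM untreated, 80.2, 88.2 and 96.2 at 4OHT day 5 and 122, 129.6 and 107 in long-term KO. Every long-term KO library stood above the other 6, and the log2 fold change against untreated was 0.71 (SE 0.09, adjusted p = 2.73e-04). *Ccna2* was lower with TSA (-0.79, SE 0.11, adjusted p = 9.55e-04) and higher with 4OHT + PD0325901 than with PD0325901 (0.52, SE 0.11, adjusted p = 0.0366). The latter call was lost without 4OHT + PD0325901 replicate 1 or 2 or PD0325901 replicate 2 and without a filter on low values, with median-ratio scaling, with quantile normalization or with only the 2 groups in the fit. *Ccnb1*, the other B cyclin, was higher in long-term KO (0.61, SE 0.06, adjusted p = 9.00e-05) and lower with TSA (-1.01, SE 0.16, adjusted p = 0.00151). Its day 5 call of 0.21 (SE 0.06, adjusted p = 0.0378) was lost without untreated replicate 2 or 3 or 4OHT day 5 replicate 2 or 3 and without a filter on low values, with only the 2 groups in the fit, with joined loci left out or with long loci left out. *Ccne2* was higher in long-term KO (0.34, SE 0.10, adjusted p = 0.0173) and lower with TSA (-0.93, SE 0.11, adjusted p = 4.45e-04). The first call was lost without untreated replicate 3 or long-term KO replicate 2. *Cdk1*, the most abundant of the role in total RNA, measured 199, 191 and 178 FPKM untreated, 158, 188 and 169 at 4OHT day 5 and 169, 175 and 182 in long-term KO, and these groups overlapped. It was not called in any total RNA comparison, and was lower with TSA, 61.3 and 52.3 FPKM against 103 and 104 FPKM untreated (-0.87, SE 0.17, adjusted p = 0.00362).

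Genes of mitosis share promoter elements. The promoter windows of the members were searched, from 250 bases before to 50 after each start site (RefSeq, build GRCm38.p6). The motifs, read on both strands, were the cell cycle gene homology region or CHR (TTTGAA) and its variant (TTTAAA, which is its own reverse complement), the CCAAT box (CCAAT), and an E2F element (TTTNNCGC). The table held windows for 32 of the 40 members, and *Ccna2*, *Ccne2*, *Kif20a*, *Tpx2*, *Mcm4*, *Gins1*, *Gins2* and *Aurkb* are missing from it. Of 17 G2/M members with a window, 13 (76.5%) held a CHR, 16 (94.1%) a CCAAT box, 15 (88.2%) a CCAAT box with a CHR or its variant, and 1 (5.88%) the E2F element. Of 27025 genes in the table, 20.2% held a CHR, 14.9% its variant, 41.1% a CCAAT box, 12.2% a CCAAT box with a CHR or its variant, and 5.93% the E2F element. A match is a description of the letters and not a bound site. Among these, *Ccnb2*, *Cdc20* and *Plk1* are shown because they were among the 5 G2/M members with the lowest log2 fold change with TSA. The windows are Ccnb2 at chr9:70421505-70421804 on the minus strand, Cdc20 at chr4:118437294-118437593 on the minus strand and Plk1 at chr7:122159185-122159484 on the plus strand, printed 5′ to 3′ in lower case with matches to any of the 4 motifs in capitals.
Ccnb2: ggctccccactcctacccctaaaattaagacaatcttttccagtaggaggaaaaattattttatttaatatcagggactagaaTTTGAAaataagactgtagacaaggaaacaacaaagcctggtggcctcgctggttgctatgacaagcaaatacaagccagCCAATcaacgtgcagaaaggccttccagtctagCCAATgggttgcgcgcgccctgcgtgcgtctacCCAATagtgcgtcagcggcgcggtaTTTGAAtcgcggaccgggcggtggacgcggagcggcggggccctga
Cdc20: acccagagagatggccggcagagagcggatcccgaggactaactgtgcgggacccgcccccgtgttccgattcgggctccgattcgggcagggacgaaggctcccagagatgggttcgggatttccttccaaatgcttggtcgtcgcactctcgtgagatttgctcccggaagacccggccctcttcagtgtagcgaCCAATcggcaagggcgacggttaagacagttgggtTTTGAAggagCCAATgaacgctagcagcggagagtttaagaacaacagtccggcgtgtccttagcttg
Plk1: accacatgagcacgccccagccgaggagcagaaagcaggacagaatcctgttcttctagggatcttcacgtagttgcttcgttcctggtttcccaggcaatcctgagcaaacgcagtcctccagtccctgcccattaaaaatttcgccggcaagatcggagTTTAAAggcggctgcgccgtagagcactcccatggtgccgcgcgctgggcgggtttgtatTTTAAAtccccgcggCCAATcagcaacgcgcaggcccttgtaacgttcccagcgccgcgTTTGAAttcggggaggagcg

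**Figure D3:**
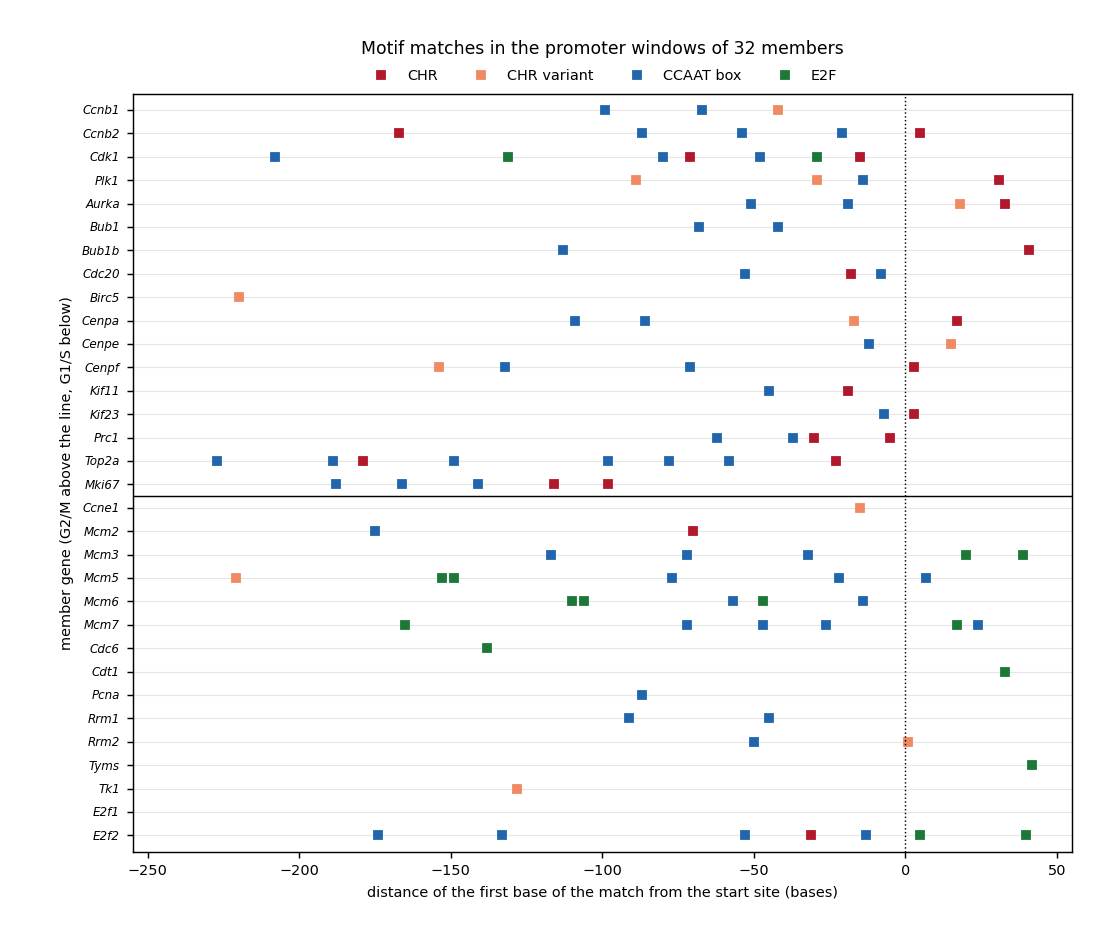
Motif matches in the promoter windows of 32 members. Each square is 1 match, placed by the distance of its first base from the start site (dotted line) in bases, with G2/M members above the line and G1/S members below. CHR matches (red) lie mainly in the upper block, in 13 of 17 genes, and E2F matches (green) mainly in the lower block, in 8 of 15 genes.

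The mitotic kinases time the steps of division, the checkpoint genes *Bub1* and *Bub1b* hold anaphase until chromosomes are attached, *Cdc20* activates the ligase that ends the hold, and *Aurkb* and *Birc5* belong to the chromosomal passenger complex. *Aurka* (chr2:172181690-172196070 in mm9), the kinase of the spindle poles, measured 57.6 and 57.1 FPKM untreated, 65.4 and 59.4 at 4OHT day 6, 48.1 and 37.2 with PD0325901, 68.0 and 66.2 with 4OHT + PD0325901 and 15.6 and 14.2 with TSA. The TSA libraries were far below all others, the PD0325901 libraries lay between TSA and untreated, and both groups with 4OHT lay above untreated. With TSA its log2 fold change was -1.94 (SE 0.13, adjusted p = 4.05e-05), a ratio of means of 0.26, and -0.44 (SE 0.13, adjusted p = 0.0746) with PD0325901, not called. With 4OHT + PD0325901 it was higher than with PD0325901 (0.66, SE 0.13, adjusted p = 0.026). That call was lost without 4OHT + PD0325901 replicate 1 or 2 or PD0325901 replicate 2 and without a filter on low values, with median-ratio scaling or with only the 2 groups in the fit. In total RNA *Aurka* ranged from 43.9 to 50.1 FPKM over 9 libraries and was not called.

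*Cdc20*, whose promoter is printed above, measured 62.8 and 61.1 FPKM untreated, 89.9 and 69.1 at 4OHT day 6, 53.7 and 39.6 with PD0325901, 68.7 and 68.3 with 4OHT + PD0325901 and 16.2 and 17.6 with TSA. TSA libraries lay below every other library, at -1.87 (SE 0.17, adjusted p = 1.28e-04). In total RNA it measured 50.2, 50.2 and 50.5 FPKM untreated, 55.3, 58.0 and 53.9 at 4OHT day 5 and 79.1, 74.2 and 89.5 in long-term KO, with the long-term KO libraries above all others (0.68, SE 0.07, adjusted p = 7.51e-05). *Plk1* measured 55.3 and 56.6 FPKM untreated, 65.8 and 61.0 at 4OHT day 6, 43.7 and 34.8 with PD0325901, 58.2 and 59.9 with 4OHT + PD0325901 and 21.0 and 18.4 with TSA. It was lowest with TSA (-1.50, SE 0.13, adjusted p = 8.90e-05) and lower with PD0325901 (-0.52, SE 0.13, adjusted p = 0.0389), and it was higher with 4OHT + PD0325901 than with PD0325901 alone (0.60, SE 0.13, adjusted p = 0.0328). The *Plk1* call with PD0325901 was lost without untreated replicate 1 or 2 or PD0325901 replicate 2 and without a filter on low values, with median-ratio scaling or with only the 2 groups in the fit. The last was lost without 4OHT + PD0325901 replicate 1 or 2 or PD0325901 replicate 2 and without a filter on low values, with median-ratio scaling, with quantile normalization or with only the 2 groups in the fit.

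*Bub1b* (chr2:118423947-118467328) measured 51.7 and 52.0 FPKM untreated, 39.7 and 44.6 at 4OHT day 6, 26.5 and 26.4 with PD0325901, 29.4 and 36.9 with 4OHT + PD0325901 and 18.4 and 17.9 with TSA. The PD0325901 and TSA libraries lay below the untreated ones and those at 4OHT day 6, with -0.97 (SE 0.12, adjusted p = 0.00403) for PD0325901 and -1.51 (SE 0.12, adjusted p = 7.96e-05) for TSA. It is the only PD0325901 call among the members that no left-out library ended. *Birc5*, survivin and the most abundant of this role, measured 150.4 and 145 FPKM untreated, 166 and 148 at 4OHT day 6, 131 and 97.7 with PD0325901, 175 and 148 with 4OHT + PD0325901 and 105 and 105 with TSA. It was lower with TSA than untreated (-0.49, SE 0.15, adjusted p = 0.0296), though its lowest library was PD0325901 replicate 2. Its call was lost without untreated replicate 1 or 2 or TSA replicate 1 or 2 and without a filter on low values. *Aurkb* was lower with TSA (-1.30, SE 0.13, adjusted p = 1.67e-04) and with PD0325901 (-0.72, SE 0.13, adjusted p = 0.0133). The second call was lost without untreated replicate 1 or 2. *Bub1* was lower with PD0325901 (-0.61, SE 0.15, adjusted p = 0.0397) and TSA (-0.45, SE 0.15, adjusted p = 0.0356). The first call was lost without untreated replicate 1 or 2 or PD0325901 replicate 1 or 2 and without a filter on low values or with median-ratio scaling. The second was lost without untreated replicate 1 or 2 or TSA replicate 1 or 2 and without a filter on low values. In long-term KO, *Cdc20*, *Bub1b* (0.36) and *Plk1* (0.15) were higher than in untreated libraries and *Aurkb* (-0.17) was lower. The *Aurkb* call was lost without untreated replicate 2 or 3 or long-term KO replicate 2 or 3 and without a filter on low values or with only the 2 groups in the fit. The *Plk1* call in long-term KO was lost with median-ratio scaling.

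No member of this role was called at 4OHT day 5 or in the siRNA experiment, where limma gave 0 of 7 at an unadjusted p under 0.05 at day 5 and 0 to 2 of 7 in the 4 siRNA comparisons.

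At the centromere, *Cenpa* is the histone variant that marks the site, *Cenpe* is a kinetochore motor and *Cenpf* a kinetochore protein that builds up in G2. *Cenpf* (chr1:191464493-191511965 in mm9) measured 7.09, 7.73 and 7.36 FPKM untreated, 9.12, 8.59 and 9.19 at 4OHT day 5 and 13.4, 13.0 and 13.6 in long-term KO. The 3 groups did not overlap, with untreated lowest and long-term KO highest. In long-term KO its change of 0.84 (SE 0.04, adjusted p = 2.94e-06) was the highest of the 40 members, and at day 5 it was 0.27 (SE 0.04, adjusted p = 0.00295). With the inhibitors *Cenpf* measured 10.8 and 12.3 FPKM untreated, 6.74 and 9.53 at 4OHT day 6, 4.38 and 6.35 with PD0325901, 3.58 and 7.09 with 4OHT + PD0325901 and 8.74 and 10.7 with TSA. TSA replicate 2 lay close under the untreated libraries, and the lowest value was in 4OHT + PD0325901 replicate 1. It was not called in any comparison of that experiment, with -1.11 (SE 0.35, adjusted p = 0.0842) for PD0325901.

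*Cenpe* measured 13.2, 13.7 and 12.3 FPKM untreated, 11.8, 11.7 and 11.5 at 4OHT day 5 and 18.4, 18.5 and 18.4 in long-term KO. Day 5 libraries were lowest and long-term KO libraries highest, with no overlap: -0.16 (SE 0.04, adjusted p = 0.0193) at day 5, 0.49 (SE 0.04, adjusted p = 3.02e-05) in long-term KO and 0.66 (SE 0.04, adjusted p = 7.39e-06) between the 2. The day 5 call was lost without untreated replicate 1 or 2 or 4OHT day 5 replicate 3 and with only the 2 groups in the fit. *Cenpa*, the most abundant of the 3, measured 65.6 and 62.1 FPKM untreated, 81.3 and 66.9 at 4OHT day 6, 57.2 and 44.7 with PD0325901, 69.2 and 59.7 with 4OHT + PD0325901 and 25.0 and 24.5 with TSA. Its TSA libraries were the 2 lowest (-1.37, SE 0.15, adjusted p = 2.86e-04). In long-term KO *Cenpa* was 59.4, 81.8 and 53.2 FPKM, against 42.8, 43.4 and 51.9 FPKM untreated (0.47, SE 0.16, adjusted p = 0.0386). That call was lost without untreated replicate 1 or 2 or long-term KO replicate 1 or 2 and without a filter on low values, with median-ratio scaling, with quantile normalization or with only the 2 groups in the fit.

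The spindle group holds the motor *Kif11*, which pushes the poles apart, *Tpx2*, which activates *Aurka* on the spindle, and *Kif20a*, *Kif23* and *Prc1*, which build the midzone used in cytokinesis. All 5 were higher in long-term KO than in untreated libraries and than at 4OHT day 5. *Tpx2* (chr2:152673700-152721057 in mm9) measured 55.1, 57.7 and 53.5 FPKM untreated, 40.2, 42.4 and 49.0 at 4OHT day 5 and 72.4, 71.2 and 72.2 in long-term KO. Day 5 was lowest and long-term KO highest without overlap, at -0.34 (SE 0.07, adjusted p = 0.00971) for day 5, 0.38 (SE 0.07, adjusted p = 0.00269) for long-term KO and 0.72 (SE 0.07, adjusted p = 9.01e-05) between the 2. *Kif20a*, the most abundant of the 5 in total RNA, measured 79.0, 86.5 and 75.0 FPKM untreated, 81.8, 84.9 and 79.6 at 4OHT day 5 and 136, 123 and 121 in long-term KO. All long-term KO libraries were above the rest (0.66, SE 0.07, adjusted p = 9.18e-05). The other log2 fold changes in long-term KO were 0.51 for *Kif11*, 0.45 for *Kif23* and 0.33 for *Prc1*.

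With the inhibitors, *Kif20a* measured 65.4 and 64.8 FPKM untreated, 96.6 and 77.7 at 4OHT day 6, 52.0 and 47.4 with PD0325901, 69.1 and 66.5 with 4OHT + PD0325901 and 29.5 and 32.0 with TSA. Both TSA libraries lay below all others and both 4OHT day 6 libraries above all others, at -1.08 (SE 0.12, adjusted p = 2.83e-04) with TSA and 0.41 (SE 0.12, adjusted p = 0.044) at 4OHT day 6. The assembled locus was longer than the gene in 4OHT day 6 replicate 1. The second call was lost without untreated replicate 1 or 2 or 4OHT day 6 replicate 1 and without a filter on low values, with median-ratio scaling, with quantile normalization, with only the 2 groups in the fit or with long loci left out. Its log2 fold change was 0.26 without 4OHT day 6 replicate 1. *Kif11* was at 27.9 and 23.5 FPKM with TSA and 62.7 and 60.7 FPKM untreated, well apart (-1.26, SE 0.14, adjusted p = 3.35e-04). With PD0325901, *Kif23* (-0.74, SE 0.15, adjusted p = 0.0196) and *Kif11* (-0.58, SE 0.14, adjusted p = 0.0412) were lower. The first call was lost without untreated replicate 1 or 2 or PD0325901 replicate 2 and without a filter on low values. The second was lost without untreated replicate 1 or 2 or PD0325901 replicate 1 or 2 and without a filter on low values, with median-ratio scaling or with quantile normalization. *Kif23* (-0.96) and *Tpx2* (-0.57) were also lower with TSA, and *Prc1* was at 60.9 and 56.6 FPKM against 74.5 and 69.8 FPKM untreated, not called (-0.30, SE 0.11, adjusted p = 0.0591). None of the 5 was called by limma in the siRNA experiment, with 0 to 2 of 5 at an unadjusted p under 0.05 in its 4 comparisons.

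*Mki67* encodes Ki-67, which coats mitotic chromosomes and serves as a marker of dividing cells, and *Top2a* encodes the topoisomerase that untangles sister chromatids. *Mki67* (chr7:142881471-142908062 in mm9) measured 46.8 and 50.5 FPKM untreated, 25.6 and 33.7 at 4OHT day 6, 16.5 and 22.5 with PD0325901, 12.1 and 23.3 with 4OHT + PD0325901 and 22.2 and 18.4 with TSA. All treated groups lay under the untreated libraries, and the lowest value was in 4OHT + PD0325901 replicate 1. It was lower with PD0325901 (-1.33, SE 0.31, adjusted p = 0.0336) and TSA (-1.26, SE 0.31, adjusted p = 0.0108), and was not called at 4OHT day 6 (-0.72, SE 0.31, adjusted p = 0.136). The PD0325901 call was lost without untreated replicate 1 or 2 or PD0325901 replicate 1 or 2 and without a filter on low values. The TSA call was lost without untreated replicate 2 or TSA replicate 2. In total RNA it measured 34.7, 38.2 and 36.4 FPKM untreated, 34.3, 34.8 and 38.0 at 4OHT day 5 and 56.7, 58.1 and 61.3 in long-term KO. Long-term KO libraries were far above the other 6, which overlapped, at 0.69 (SE 0.06, adjusted p = 2.63e-05) against untreated and 0.72 (SE 0.06, adjusted p = 2.31e-05) against day 5.

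*Top2a*, among the most abundant members, measured 235, 237 and 212 FPKM untreated, 206, 206 and 197 at 4OHT day 5 and 179.8, 184 and 183 in long-term KO. The groups did not overlap and long-term KO was lowest (-0.32, SE 0.05, adjusted p = 6.77e-04). The smaller steps were -0.16 (SE 0.05, adjusted p = 0.0343) from untreated to day 5 and -0.16 (SE 0.05, adjusted p = 0.0227) from day 5 to long-term KO. The first was lost without untreated replicate 1 or 2 or 4OHT day 5 replicate 1, 2 or 3 and without a filter on low values or with only the 2 groups in the fit. The second was lost without 4OHT day 5 replicate 1 or 2 or long-term KO replicate 1, 2 or 3. With TSA it was 103 and 89.5 FPKM, against 177 and 170.4 FPKM untreated (-0.85, SE 0.14, adjusted p = 0.0015).

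The G1/S members differ from the G2/M members in the letters of their promoter windows, described in the same way. Of 15 with a window, 8 (53.3%) held the E2F element, 2 (13.3%) a CHR, 9 (60%) a CCAAT box and 4 (26.7%) a CCAAT box with a CHR or its variant. Windows of *Mcm5*, *Cdc6* and *Cdt1* are shown because each holds the E2F element while the genes followed different courses below. They are Mcm5 at chr8:75109259-75109558 on the plus strand, Cdc6 at chr11:98907901-98908200 on the plus strand and Cdt1 at chr8:122567765-122568064 on the plus strand (RefSeq, GRCm38.p6), with capitals as before; in *Mcm5* neighbouring E2F matches overlap into 1 run.
Mcm5: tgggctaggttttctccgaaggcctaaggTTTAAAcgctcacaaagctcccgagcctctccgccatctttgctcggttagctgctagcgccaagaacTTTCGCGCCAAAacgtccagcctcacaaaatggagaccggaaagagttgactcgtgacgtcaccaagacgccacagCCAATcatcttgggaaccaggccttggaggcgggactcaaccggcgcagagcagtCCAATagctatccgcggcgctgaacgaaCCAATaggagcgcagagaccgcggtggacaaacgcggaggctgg
Cdc6: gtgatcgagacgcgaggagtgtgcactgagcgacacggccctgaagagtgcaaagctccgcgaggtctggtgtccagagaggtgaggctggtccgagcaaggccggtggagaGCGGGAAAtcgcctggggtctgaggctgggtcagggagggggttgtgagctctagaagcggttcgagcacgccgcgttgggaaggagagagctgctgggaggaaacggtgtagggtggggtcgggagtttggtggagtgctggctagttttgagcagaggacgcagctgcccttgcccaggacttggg
Cdt1: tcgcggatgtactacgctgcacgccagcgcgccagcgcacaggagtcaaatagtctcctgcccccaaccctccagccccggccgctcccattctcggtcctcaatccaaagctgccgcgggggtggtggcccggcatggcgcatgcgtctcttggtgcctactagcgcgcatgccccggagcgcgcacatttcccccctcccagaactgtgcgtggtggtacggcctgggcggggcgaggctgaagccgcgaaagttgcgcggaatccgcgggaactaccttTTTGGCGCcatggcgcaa

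The 6 MCM proteins form the ring that unwinds DNA at replication forks, and they are loaded onto origins before S phase. *Mcm2* (chr6:88833468-88848774 in mm9) measured 66.1 and 68.2 FPKM untreated, 75.3 and 68.9 at 4OHT day 6, 73.7 and 68.7 with PD0325901, 82.9 and 76.2 with 4OHT + PD0325901 and 37.6 and 34.5 with TSA. The 2 TSA libraries lay far below the other 8, which did not go under 66.1 FPKM (-0.90, SE 0.09, adjusted p = 2.37e-04). With TSA, *Mcm3* (-0.68), *Mcm6* (-0.72), *Mcm7* (-0.71) and *Mcm4* (-0.31) were also lower, and *Mcm5* was not called (-0.22, SE 0.12, adjusted p = 0.177). Without untreated replicate 1, where the interval of *Mcm7* is wider than its value, its change was -0.71, still called. The *Mcm4* call was lost without untreated replicate 1 or 2 or TSA replicate 1 or 2. In limma 0 of the 6 were called at 4OHT day 5, with 2 at an unadjusted p under 0.05, and 0 in the 4 siRNA comparisons, with 0 at an unadjusted p under 0.05.

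In total RNA *Mcm4* measured 54.9, 53.6 and 52.6 FPKM untreated, 56.5, 58.4 and 55.8 at 4OHT day 5 and 85.0, 85.8 and 87.7 in long-term KO. Long-term KO libraries stood far above the other 6, at 0.68 (SE 0.03, adjusted p = 1.32e-06), and *Mcm2* rose as well (0.50, SE 0.03, adjusted p = 1.03e-05). *Mcm3* went the other way, with 90.3, 88.9 and 85.3 FPKM untreated, 91.0, 93.4 and 87.4 at 4OHT day 5 and 81.1, 80.1 and 81.0 in long-term KO. All long-term KO libraries were under the rest, at -0.13 (SE 0.03, adjusted p = 0.0152) against untreated and -0.17 (SE 0.03, adjusted p = 0.00446) against day 5. The first call was lost without untreated replicate 1 or long-term KO replicate 2. *Mcm7*, the most abundant of the 6 in the siRNA and inhibitor experiments, measured 116, 122 and 120.0 FPKM untreated, 113, 112 and 104 at 4OHT day 5 and 121, 133 and 116 in long-term KO in total RNA. There only its rise from day 5 to long-term KO was called (0.17, SE 0.06, adjusted p = 0.0361). That call was lost without 4OHT day 5 replicate 1, 2 or 3 or long-term KO replicate 1 or 2 and without a filter on low values, with median-ratio scaling or with only the 2 groups in the fit. *Mcm6* measured 99.6, 100.3 and 94.9 FPKM untreated, 178, 105 and 171 at 4OHT day 5 and 127, 126 and 119 in long-term KO. Its high values in day 5 replicates 1 and 3 come from loci joined with the neighbour *Dars*, as does the 238 FPKM in 4OHT + siDnmt1 replicate 2.

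*Cdc6* and *Cdt1* load the helicase onto origins in G1, *Gins1* and *Gins2* belong to the complex that activates it, and *Pcna* is the sliding clamp of the polymerase. *Cdc6* (chr11:98769203-98785256 in mm9) measured 28.6, 25.6 and 27.5 FPKM untreated, 21.7, 22.8 and 36.3 at 4OHT day 5 and 14.8, 9.64 and 18.6 in long-term KO. All long-term KO libraries lay under the other 6, though they spread widely among themselves. The log2 fold change was -0.97 (SE 0.27, adjusted p = 0.0172) against untreated, the lowest of the 40 members with *Ccne1* next, and -0.91 (SE 0.27, adjusted p = 0.0226) against day 5. The first call was lost without untreated replicate 1. The second was lost without 4OHT day 5 replicate 3 or long-term KO replicate 2 and without a filter on low values or with only the 2 groups in the fit. *Gins2* rose instead, with 32.7, 28.7 and 32.0 FPKM untreated, 31.3, 31.5 and 33.5 at 4OHT day 5 and 50.4, 46.8 and 44.0 in long-term KO. Its long-term KO libraries were above all others, at 0.60 (SE 0.07, adjusted p = 1.79e-04). With siRNA, *Gins2* measured 64.9 and 66.3 FPKM with siCtrl, 61.5 and 62.6 with siDnmt1, 55.9 and 59.1 with 4OHT + siCtrl and 49.0 and 50.4 with 4OHT + siDnmt1, and the groups with 4OHT lay below both others. It was called lower with 4OHT + siDnmt1 against siDnmt1 (-0.32, SE 0.08, adjusted p = 0.0495) and was not called with 4OHT + siCtrl (-0.19, SE 0.08, adjusted p = 0.153), a group that holds the library set apart above. The call was lost without siDnmt1 replicate 1 or 2 or 4OHT + siDnmt1 replicate 1 or 2 and with a filter at 5 FPKM.

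*Cdt1* (chr8:125091915-125097030) measured 42.6 and 46.2 FPKM untreated, 63.0 and 73.5 at 4OHT day 6, 30.5 and 33.1 with PD0325901, 51.8 and 54.6 with 4OHT + PD0325901 and 17.6 and 17.8 with TSA. Both 4OHT day 6 libraries were highest, those with 4OHT + PD0325901 next, PD0325901 libraries were under the untreated ones, and TSA libraries lowest, with no overlap among the 5 groups. Changes in log2 were 0.62 (SE 0.11, adjusted p = 0.00778) at 4OHT day 6 and -0.48 (SE 0.11, adjusted p = 0.028) with PD0325901. They were -1.32 (SE 0.11, adjusted p = 7.48e-05) with TSA and 0.74 (SE 0.11, adjusted p = 0.00853) with 4OHT + PD0325901 against PD0325901. At 4OHT day 6 the call was lost without untreated replicate 1. With PD0325901 it was lost without untreated replicate 1 or 2 or PD0325901 replicate 1 or 2. The last was lost with only the 2 groups in the fit. In the siRNA experiment it measured 46.3 and 49.4 FPKM with siCtrl, 60.4 and 61.9 with siDnmt1, 85.2 and 59.2 with 4OHT + siCtrl and 81.5 and 83.9 with 4OHT + siDnmt1. All 6 treated libraries lay above siCtrl, with no call, and the lowest of them was the library labelled 4OHT + siCtrl replicate 2. With 4OHT + siCtrl, that library included, the change was 0.57 (SE 0.17, adjusted p = 0.0835). In total RNA *Cdt1* ranged from 31.1 to 37.1 FPKM over 9 libraries, with no call.

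*Pcna*, the most abundant member, measured 369 and 361 FPKM untreated, 434 and 385 at 4OHT day 6, 340.3 and 332 with PD0325901, 351 and 294 with 4OHT + PD0325901 and 286 and 232 with TSA. Its TSA libraries were the 2 lowest (-0.50, SE 0.14, adjusted p = 0.0187). That call was lost without untreated replicate 1 or 2 or TSA replicate 2. In total RNA it measured 338, 308 and 317 FPKM untreated, 326, 329 and 311 at 4OHT day 5 and 359, 329 and 325 in long-term KO. Its loci there also hold *Tmem230* in all 9 libraries, and it was not called. *Gins1* was at 18.7 and 17.6 FPKM with TSA and 26.9 and 27.3 FPKM untreated (-0.58, SE 0.18, adjusted p = 0.0281). That call was lost without untreated replicate 1 or 2 or TSA replicate 1 or 2 and without a filter on low values.

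*Rrm1* and *Rrm2* are the subunits of ribonucleotide reductase, *Tyms* is thymidylate synthase, and *Tk1* is the thymidine kinase of the salvage path. *Rrm1* (chr7:109590209-109618285 in mm9) measured 103 and 97.8 FPKM untreated, 109 and 93.2 at 4OHT day 6, 138 and 110.0 with PD0325901, 148 and 122 with 4OHT + PD0325901 and 29.7 and 20.7 with TSA. TSA libraries lay far below the rest, while those with PD0325901 lay above the untreated ones. The log2 fold change of -2.01 (SE 0.20, adjusted p = 1.80e-04) with TSA was the lowest of the 40 members, a ratio of means of 0.251, and with PD0325901 it was 0.29 (SE 0.20, adjusted p = 0.383), not called. With siRNA, *Rrm1* measured 120.0 and 117 FPKM with siCtrl, 86.3 and 87.0 with siDnmt1, 90.1 and 94.7 with 4OHT + siCtrl and 74.4 and 82.9 with 4OHT + siDnmt1. Both siCtrl libraries were above the other 6, at -0.45 (SE 0.08, adjusted p = 0.0374) with siDnmt1 and -0.36 (SE 0.08, adjusted p = 0.0489) with 4OHT + siCtrl. Without the library labelled 4OHT + siCtrl replicate 2 the second was -0.39, still called. In siCtrl replicate 1 the locus is joined with the neighbour *Stim1*. The siDnmt1 call was lost without siCtrl replicate 1 or 2 or siDnmt1 replicate 1 or 2 and with median-ratio scaling, with quantile normalization, with joined loci left out or with long loci left out. The call with 4OHT + siCtrl was lost without siCtrl replicate 1 or 2 or 4OHT + siCtrl replicate 1 and without a filter on low values, with a filter at 5 FPKM, with quantile normalization, with only the 2 groups in the fit, with joined loci left out or with long loci left out.

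*Tk1* (chr11:117676833-117687328) measured 107 and 102 FPKM untreated, 88.8 and 64.2 at 4OHT day 6, 69.0 and 50.5 with PD0325901, 65.7 and 40.9 with 4OHT + PD0325901 and 29.9 and 25.2 with TSA. TSA libraries were lowest, both PD0325901 libraries lay under the untreated ones, and replicate 2 lay under replicate 1 in every treated group. In log2 it changed by -1.92 (SE 0.26, adjusted p = 7.73e-04) with TSA and -0.82 (SE 0.26, adjusted p = 0.0894) with PD0325901, the second not called. In total RNA it measured 84.8, 81.6 and 69.5 FPKM untreated, 54.4, 70.3 and 54.7 at 4OHT day 5 and 72.4, 67.0 and 69.8 in long-term KO, and day 5 overlapped with untreated. The day 5 call (-0.40, SE 0.12, adjusted p = 0.0364) was lost without untreated replicate 1 or 2 or 4OHT day 5 replicate 1 or 3 and without a filter on low values or with only the 2 groups in the fit. The library labelled 4OHT + siCtrl replicate 2 held the highest *Tk1* of the siRNA experiment, 137 FPKM, against 67.5 FPKM in replicate 1.

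*Rrm2* measured 31.8, 32.8 and 30.7 FPKM untreated, 38.3, 39.5 and 34.7 at 4OHT day 5 and 39.3, 42.3 and 40.1 in long-term KO. Both groups after 4OHT lay above untreated, at 0.23 (SE 0.06, adjusted p = 0.0173) for day 5 and 0.35 (SE 0.06, adjusted p = 0.00113) for long-term KO. Its day 5 call was lost without untreated replicate 3 or 4OHT day 5 replicate 1 or 2. Inhibitor libraries gave 46.6 and 49.3 FPKM untreated, 116 and 71.0 at 4OHT day 6, 85.2 and 47.3 with PD0325901, 152 and 81.1 with 4OHT + PD0325901 and 36.3 and 28.4 with TSA. Replicate 1 stood far above replicate 2 in the 3 groups with 4OHT or PD0325901. Within each replicate number, *Rrm2* was higher with 4OHT + PD0325901 than with PD0325901. It was not called in the fit used here, which takes no account of the replicate number. *Tyms* measured 35.3 and 112 FPKM untreated, 30.9 and 28.7 at 4OHT day 6, 31.1 and 81.3 with PD0325901, 123 and 26.9 with 4OHT + PD0325901 and 21.8 and 20.1 with TSA. These values fall into a high and a low band within groups, and the high ones belong to libraries whose assembled locus is more than 2 times as long as the gene. In total RNA it measured 92.9, 87.9 and 86.4 FPKM untreated, 84.1, 84.6 and 37.8 at 4OHT day 5 and 64.1, 72.9 and 73.9 in long-term KO, and there the loci of such length, in 4OHT day 5 replicate 3 and long-term KO replicates 1 and 3, do not hold high values. *Tyms* was not called in any of the 12 comparisons.

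*E2f1* and *E2f2* encode activating E2F factors, which bind the promoters of S phase genes. *E2f2* (chr4:135728189-135751971 in mm9), the least abundant member, measured 2.23 and 1.81 FPKM untreated, 1.09 and 1.12 at 4OHT day 6, 0.567 and 0.718 with PD0325901, 0.609 and 0.809 with 4OHT + PD0325901 and 2.68 and 2.78 with TSA. Libraries with PD0325901 were the 4 lowest, 4OHT day 6 libraries lay between them and the untreated ones, and both TSA libraries were the highest. The log2 fold change was -1.51 (SE 0.24, adjusted p = 0.00904) with PD0325901, -0.81 (SE 0.24, adjusted p = 0.047) at 4OHT day 6 and 0.43 (SE 0.24, adjusted p = 0.166) with TSA, the last not called. At this level the pseudocount matters: with a pseudocount of 1 the first 2 were -0.88 and -0.52, both still called. The PD0325901 call was lost without untreated replicate 1 or 2. The 4OHT call was lost without untreated replicate 1 or 2 or 4OHT day 6 replicate 1 or 2 and with a pseudocount of 0.01, without a filter on low values, with quantile normalization or with only the 2 groups in the fit. In total RNA *E2f2* measured 1.50, 1.54 and 1.54 FPKM untreated, 1.26, 1.21 and 1.40 at 4OHT day 5 and 1.18, 1.04 and 1.21 in long-term KO. Untreated libraries lay above the others, at -0.39 (SE 0.08, adjusted p = 0.00475) for long-term KO, which was -0.24 with a pseudocount of 1. The siRNA experiment gave 1.14 and 1.27 FPKM with siCtrl, 2.15 and 2.22 with siDnmt1, 1.65 and 6.07 with 4OHT + siCtrl and 1.40 and 1.86 with 4OHT + siDnmt1. The highest value was in the library labelled 4OHT + siCtrl replicate 2, and there was no call.

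*E2f1* measured 6.55, 4.89 and 5.85 FPKM untreated, 4.83, 4.90 and 4.40 at 4OHT day 5 and 7.49, 6.52 and 6.28 in long-term KO. It was higher in long-term KO than at day 5 (0.51, SE 0.12, adjusted p = 0.00638), with no overlap between those groups, and in replicate 1 of every group its locus is joined with *Necab3*. With TSA it was 13.3 and 12.4 FPKM against 15.1 and 16.1 FPKM untreated, not called (-0.28, SE 0.11, adjusted p = 0.0595). So the 2 factors and *Ccne1* were among the 11 members that were not called lower with TSA.

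**Figure D4:**
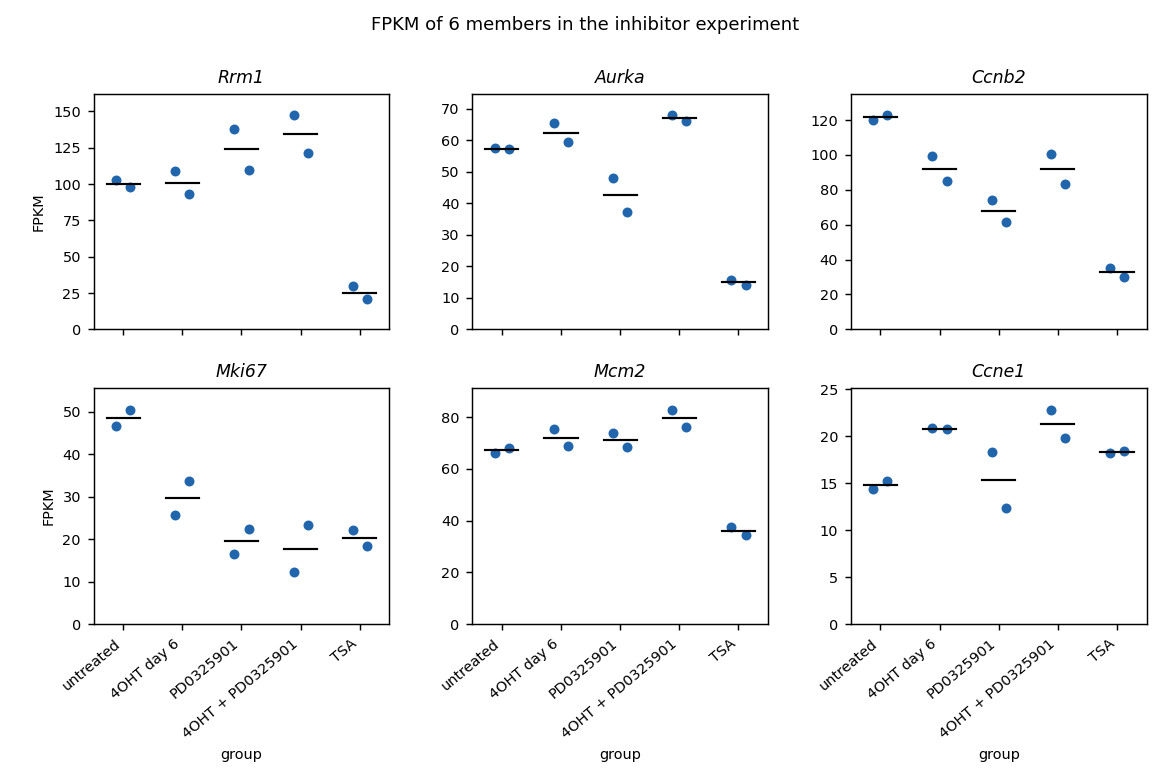
FPKM of 6 members in the 10 libraries of the inhibitor experiment. Each dot is 1 library and the bar is the mean of the 2 libraries of a group; axes start at 0. TSA libraries are the lowest for *Rrm1*, *Aurka*, *Ccnb2* and *Mcm2*, while *Ccne1* with TSA lies above untreated and *Mki67* is also low with PD0325901.

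**Figure D5:**
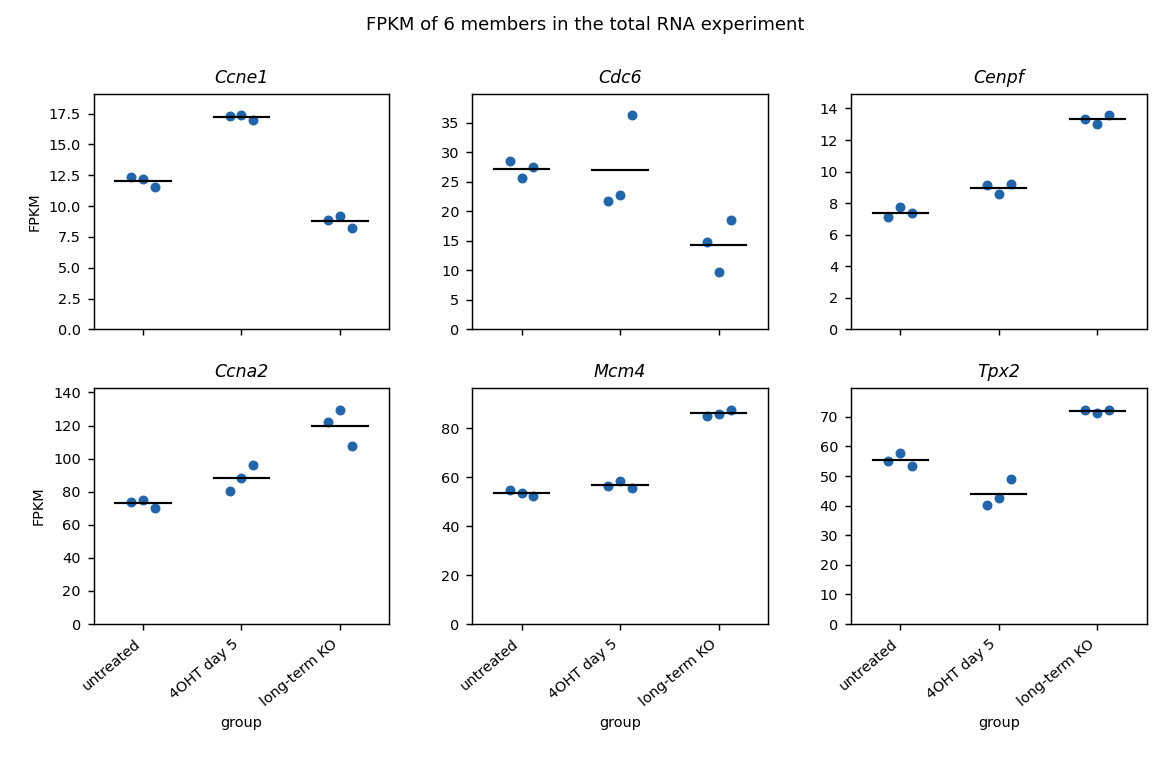
FPKM of 6 members in the 9 libraries of the total RNA experiment. Each dot is 1 library and the bar is the mean of the 3 libraries of a group; axes start at 0. *Ccne1* and *Cdc6* are lowest in long-term KO, and *Cenpf*, *Ccna2*, *Mcm4* and *Tpx2* are highest there.

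Other genes of the same phases were read from lists of 30 G1/S genes, 35 G2/M genes and 18 genes of G1 control. Over all genes tested, 23.7% were lower and 30.0% higher with TSA (median 0.09), 7.0 and 5.36% with PD0325901 (-0.07), 26.6 and 34.4% in long-term KO (0.08), and 15.3 and 16.4% at 4OHT day 5 (0.00). With TSA, 22 of 35 other G2/M genes were lower and 1 higher, with a median of -0.54, and the lowest were *Ckap2* (-1.55), *Hmmr* (-1.52) and *Ube2c* (-1.35). Of the other G1/S genes, 10 of 30 were lower with TSA and 6 higher, with a median of -0.20, from *Rfc5* (-1.03) and *Uhrf1* (-1.01) to *Gins4* (0.97). *Orc6* is listed at 0 in both TSA libraries, against 63.6 and 80.8 FPKM untreated. These 0 values are not flagged as failed, though a 0 can still be a failed estimate. In long-term KO, 22 of 34 other G2/M genes were higher and 3 lower (median 0.26), with *Kif22* (1.22, SE 0.40), *Foxm1* (1.06) and *Ckap2* (1.04) the highest. The *Kif22* locus is joined with the neighbour *Maz* in long-term KO replicates 2 and 3 (55.5 and 49.9 FPKM). It is not joined in the untreated libraries (mean 17.3 FPKM). The *Ckap2* locus is joined with *Nek3* in long-term KO replicate 2. The other G1/S genes split in long-term KO into 9 higher (32.1%) and 6 lower (21.4%) of 28, with a median of -0.00 and both shares under those over all genes. With PD0325901, 11 of 35 other G2/M genes and 6 of 30 other G1/S genes were lower, and limma called 0 and 0 higher, with 24 and 10 at an unadjusted p under 0.05 and medians of -0.46 and -0.21. At 4OHT day 5, 8 other G2/M genes were higher and 2 lower of 34, with *Foxm1* (0.62), a factor that switches on mitotic genes, the highest. Of the other G1/S genes, 1 was higher and 4 lower of 28 at day 5, and the medians of the 2 lists were 0.05 and -0.04.

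Genes of G1 control, the cyclin D kinases, their inhibitors and the pocket proteins, moved in both directions. *Ccnd1*, the cyclin that links growth signals to the cycle, measured 36.3 and 37.2 FPKM untreated, 84.2 and 61.5 at 4OHT day 6, 9.35 and 4.33 with PD0325901, 14.8 and 13.6 with 4OHT + PD0325901 and 10.5 and 7.49 with TSA. It was low in all 4 libraries with PD0325901 and in both with TSA, at -2.51 (SE 0.35, adjusted p = 0.00559) and -2.04 (SE 0.35, adjusted p = 0.00202). In total RNA *Ccnd1* measured 33.7, 36.5 and 35.5 FPKM untreated, 47.5, 47.8 and 46.0 at 4OHT day 5 and 14.3, 13.8 and 14.7 in long-term KO, highest at day 5 and lowest in long-term KO (-1.30, SE 0.04, adjusted p = 2.83e-07), where *Ccnd2* (-1.57) and *E2f4* (-1.11) were also lower. The *E2f4* locus is joined with *Elmo3* in every total RNA library, so its value is not that of *E2f4* alone. *Cdkn1b*, the inhibitor p27, measured 13.5, 14.3 and 14.0 FPKM untreated, 19.9, 16.2 and 15.5 at 4OHT day 5 and 49.4, 49.9 and 42.7 in long-term KO. The long-term KO libraries stood far above the rest (1.75, SE 0.10, adjusted p = 4.87e-06), and *Cdkn2c* (1.09) was also higher. *Cdkn1a*, the inhibitor p21, measured 23.2 and 23.0 FPKM untreated, 62.2 and 49.4 at 4OHT day 6, 51.4 and 62.4 with PD0325901, 88.9 and 74.2 with 4OHT + PD0325901 and 63.3 and 71.9 with TSA. The untreated libraries were lowest, with calls at 4OHT day 6 (1.26), with PD0325901 (1.29) and with TSA (1.54). Over the list, 11 of 18 were lower and 2 higher with TSA, 4 lower and 1 higher with PD0325901, and 4 lower (23.5%) and 6 higher (35.3%) of 17 in long-term KO, against the shares over all genes given above, and the last 2 lie near them. Medians were -0.66 with TSA, -0.20 with PD0325901 and 0.05 in long-term KO.

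The labelled cell type was read from 10 fibroblast markers and 10 markers of other cells. At least 9 of the 10 fibroblast markers reached 1 FPKM in every library, with *Vim*, *Sparc*, *Col1a1* or *S100a4* the most abundant. Their sum was 4936 and 5154 FPKM untreated, 3695 and 3589 at 4OHT day 6, 6908 and 7297 with PD0325901, 4759 and 4544 with 4OHT + PD0325901 and 3955 and 3889 FPKM with TSA in the inhibitor experiment. In the siRNA experiment it was 6432 and 6638 FPKM with siCtrl, 5162 and 5345 with siDnmt1, 3008 and 4525 with 4OHT + siCtrl and 3077 and 3059 FPKM with 4OHT + siDnmt1, and in total RNA 2932, 2972 and 2901 FPKM untreated, 2448, 2631 and 2218 at 4OHT day 5 and 3448, 2932 and 3248 FPKM in long-term KO. *Col1a1* has no value in 4OHT day 5 replicate 3 and long-term KO replicate 2, which lowers their sums. Of 9 fibroblast markers tested in total RNA, 4 were lower and 1 higher at day 5, with *Pdgfra* (-1.52) and *Col3a1* (-1.47) the lowest. In long-term KO 1 was lower, *Pdgfra* (-2.85), and 3 were higher, *Pdgfrb* (2.80), *S100a4* (0.69) and *Col1a2* (0.47). With TSA, 6 of the 10 fibroblast markers were lower and 3 higher, so they moved beside the members. The markers of other cells moved with TSA too: their sum was 7.07 and 7.02 FPKM untreated and 99.4 and 94.7 FPKM with TSA. At 1 FPKM or more were 1 and 3 of 10 untreated and 4 and 4 with TSA, and *Cd68* was the most abundant (66.9 and 60.5 FPKM with TSA). Of 4 of them tested, 3 were higher with TSA: *Epcam* (0.839 and 1.09 FPKM to 28.1 and 29.2 FPKM), *Cd68* and *Cdh1*. *Cdh5* is at 0 in both TSA libraries, *Pou5f1* in replicate 1 and *Itgam* in replicate 2. Their part in the lower values of the members with TSA was not tested.

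With siDnmt1, the sum of the markers of other cells was 24.7 and 24.5 FPKM, and 53.5 and 37.0 FPKM with 4OHT + siDnmt1, against 5.02 and 4.99 FPKM with siCtrl and 6.38 and 16.4 FPKM with 4OHT + siCtrl. *Krt18* was the most abundant with siDnmt1 (17.6 and 17.8 FPKM). At 1 FPKM or more were 1 and 1 of 10 with siCtrl, 3 and 3 with siDnmt1, 2 and 4 with 4OHT + siCtrl and 4 and 4 with 4OHT + siDnmt1. *Itgam* is listed at 0 in siDnmt1 replicate 2 and *Ptprc* in both 4OHT + siDnmt1 libraries. In total RNA, *Cd68* made up most of a sum between 4.28 and 777 FPKM. Its locus is joined with the neighbour *Eif4a1* in 7 of the 9 libraries, and in untreated replicate 3 and 4OHT day 5 replicate 2, where it is not, *Cd68* was at 2.73 and 3.90 FPKM. In every library 2 of 10 markers reached 1 FPKM. There *Nanog* was higher after 4OHT (0.51 at day 5, 1.81 in long-term KO) and *Epcam* lower in long-term KO (-1.96), of 3 tested, while *Itgam*, *Ptprc*, *Cdh5*, *Pou5f1* and *Pecam1* are at 0 in some of the libraries. The part of these markers in the values of the members was not tested.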

How the data were processed

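Gene expression was measured by RNA sequencing in 27 libraries of mouse fibroblasts. The authors mapped reads to mm9 with TopHat2 2.0.12 and deposited FPKM per locus from Cufflinks, each library assembled alone, with 95% intervals. The authors also deposited group FPKM, log2 fold changes, p-values and q-values for loci marked significant in 2 tables of differences, which were not used. In total RNA libraries, a gene took the locus that covers 95% of it. Loci matched their given names in 99.98 to 99.99% of cases and RefSeq accessions in 99.38 to 99.47%. Depth and precision stand in the report.

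Each experiment was fitted alone, with 1 mean per group, in limma 3.58.1 (R 4.3.3) with trended variances on log2(FPKM + 0.1), for genes that reached 1 FPKM in at least as many libraries as its smallest group holds, two-sided, with Benjamini-Hochberg adjustment over all genes tested and a call at an adjusted p under 0.05. Tables were made with pandas 2.3.3, numpy 2.4.6 and scipy 1.17.1 in Python 3.11.15, and figures with matplotlib 3.10.9, and the code was tested on simulated data. The pseudocount, filter, scaling, block, groups in the fit, libraries, joined or long loci and a 2-fold limit were varied.

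All 40 members are named. Values in every library are given for the 3 lowest and 3 highest log2 fold changes among members called in a comparison, and for the most abundant member of a role. Other genes come from the lists named in the report, from the 3 largest changes in each direction among called genes, of which not all are named. One gene of these lists is not reported here. *Irf7* and *Usp18* were chosen after their values were seen. The members and lists were chosen with earlier results of these data known.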

Additional observations from a re-analysis of the deposited data

Results flagged for a closer look

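Where effects of 2 groups on the same member pointed in opposite directions, the member was flagged. Against the same untreated total RNA libraries, *Ccne1* was called higher at 4OHT day 5 and lower in long-term KO, and *Cenpe* and *Tpx2* were called lower at day 5 and higher in long-term KO. The test of the difference, long-term KO minus day 5, gave a log2 difference of -0.97 for *Ccne1*, 0.66 for *Cenpe* and 0.72 for *Tpx2*.

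Between experiments, effects of 4OHT were flagged where every treated library lay on 1 side of its controls in 1 experiment and on the other side in the other, and where the member was also called with 4OHT in at least 1 of the 3 experiments. These differences were not tested. *Gins1* and *Cenpa* lay on opposite sides too, with no call. Day 5 in total RNA minus day 6 in the inhibitor experiment was 0.59 for *Ccnb2*, 0.79 for *Cenpf* and -0.44 for *Tpx2*. For *Tpx2*, 4OHT + siCtrl minus 4OHT day 6 was -0.15. For *E2f2*, day 5 in total RNA minus 4OHT + siCtrl was -1.56, and 4OHT + siCtrl minus 4OHT day 6 was 2.14, both with the library labelled 4OHT + siCtrl replicate 2 at 6.07 FPKM.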

How the results depend on the processing

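Counts below are members called. Leaving out 1 library at a time gave 5 to 8 (of 9) at 4OHT day 5, 22 to 25 (of 26) in long-term KO against untreated, and 20 to 24 (of 25) against day 5. It gave 0 to 0 (of 1) with siDnmt1, 0 to 4 (of 1) with 4OHT + siCtrl against siCtrl, 0 to 1 (of 2) with 4OHT + siDnmt1 against siDnmt1, and 0 to 8 (of 0) against 4OHT + siCtrl. In the inhibitor experiment it gave 0 to 2 (of 3) at 4OHT day 6, 1 to 8 (of 10) with PD0325901, 23 to 25 (of 29) with TSA, 0 to 1 (of 0) with 4OHT + PD0325901 against 4OHT day 6, and 1 to 7 (of 4) against PD0325901. The difference of the 4OHT effect gave 0 to 1 (of 0) between siDnmt1 and siCtrl and 0 to 0 (of 0) between PD0325901 and no inhibitor. A group left with 1 library is assumed to vary like the other groups.

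A fold change of at least 2 as well left 0 at 4OHT day 5, 0 in long-term KO against untreated and 0 against day 5, 0 with siDnmt1, 0 with 4OHT + siCtrl against siCtrl, 1 with 4OHT + siDnmt1 against siDnmt1, 0 at 4OHT day 6, 2 with PD0325901, 14 with TSA and 0 with 4OHT + PD0325901 against PD0325901. Without a filter on low values the counts were 3 with siDnmt1, 0 with 4OHT + siCtrl against siCtrl, 1 with 4OHT + siDnmt1 against siDnmt1 and 2 against 4OHT + siCtrl, 1 at 4OHT day 6, 5 with PD0325901 and 1 with 4OHT + PD0325901 against PD0325901. A filter at 5 FPKM gave 0 with 4OHT + siCtrl and 1 with 4OHT + siDnmt1 against siDnmt1. Median-ratio scaling gave 0 with siDnmt1 and 1 with 4OHT + PD0325901 against PD0325901, and quantile normalization gave 0 with siDnmt1, 0 with 4OHT + siCtrl, 1 with 4OHT + siDnmt1 against siDnmt1 and 2 with 4OHT + PD0325901 against PD0325901. With only the 2 groups in the fit, 11 were called with siDnmt1, 0 with 4OHT + siCtrl and 0 with 4OHT + PD0325901 against PD0325901. Leaving out joined loci (in the siRNA and inhibitor experiments) and long loci were alternatives chosen after seeing the data, and each left 0 with siDnmt1 and 0 with 4OHT + siCtrl.

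With the replicate number as a block, 0 were called with siDnmt1, 0 with 4OHT + siCtrl, 0 with 4OHT + siDnmt1 against siDnmt1, 5 at 4OHT day 6 and 7 with 4OHT + PD0325901 against PD0325901. Deviations of libraries with the same number correlated at -0.026 to 0.097 in total RNA, where not every library correlated best with its own number, and at -0.051 to 0.027 in the siRNA experiment. In the inhibitor experiment they correlated at -0.038 to 0.041, except 0.144, 0.176 and 0.241 among the PD0325901, 4OHT and 4OHT + PD0325901 groups. The numbers were not taken as pairs.

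In all, 156 settings of these counts gave a count within 1.5 times the one reported and 64 did not. Of the values of single members, medians and counts by direction, 1981 stayed, 123 moved, 311 calls were lost and no called value changed sign. The cause of these changes was not tested. The differences of the 4OHT effect were not run with only 2 groups or with the 2-fold limit. Limits: groups hold 2 or 3 libraries of 1 clonal line, FPKM of separately assembled loci can change with the assembly, counts of reads were not analysed here, and no cell cycle phase was measured.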
